A study of Mus musculus with 24 samples.

Results

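Loss of hepatic Cpt2 was compared with an intact Cpt2 gene in livers of male mice fasted for 24 h, over both states of the Golgi GTPase gene Rab30. The comparison took 16 of the 24 RNA-seq libraries of the study by genotype label, and set 8 Cpt2-deficient livers against 8 Cpt2-intact livers with the Rab30 state as a covariate. The comparison itself was chosen with earlier results of these data known. The Cpt2-deficient side held 4 Cpt2L-/- livers (Cpt2 deleted in hepatocytes) and 4 DKO livers (Rab30 and Cpt2 both deleted in hepatocytes). The Cpt2-intact side held 4 ff;ff livers (both genes floxed, no Cre, labelled as littermates of the DKO) and 4 Rab30L-/- livers (Rab30 deleted in hepatocytes). Deletion was driven by Cre under the albumin promoter, which the study used for hepatocytes, and deletion in other liver cells was not tested here. The 1 group without Cre was ff;ff. All 8 Cpt2-deficient livers therefore carried Cre, against only the 4 Rab30L-/- livers on the intact side. The Cpt2 comparison was thus not balanced for Cre, and the part of Cre in the changes was not tested. Mice were 8 to 10 weeks old and were collected at 3 pm, and each library was 1 mouse. By the study's methods Rab30L-/- mice came from crossing the Rab30 floxed line to the Cre line, and their usual littermate controls were Rab30 floxed mice. The labels name ff;ff as littermates of DKO and give no litters for Rab30L-/- and Cpt2L-/-.

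Cpt2 encodes carnitine palmitoyltransferase 2, the enzyme of the inner mitochondrial membrane that turns long-chain acylcarnitines back into acyl-CoAs for β-oxidation. In a fast, adipose tissue releases fatty acids, and the liver oxidizes them to make ketone bodies for export and the ATP that gluconeogenesis needs. Fatty acids that reach the hepatocyte also bind the nuclear receptor Pparα, which turns on genes of fatty acid uptake, oxidation and storage.

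Levels are given as CPM, the counts of a gene relative to the size of its library, after scaling that size by edgeR's TMM factor, and each side of 8 livers is described by its lowest, median and highest value. Fold changes are log2 values of Cpt2-deficient over Cpt2-intact with their standard error (SE), and p-values were adjusted over all 14063 genes tested. A gene was called when its adjusted p was under 0.05 and its change at least 1.2-fold. With these thresholds 4863 genes were called (34.6%), of which 2378 were higher (16.9%) and 2485 lower (17.7%) in Cpt2-deficient livers. Of the called genes, 634 rose and 923 fell by at least 2-fold, and the median change of all genes tested was -0.01. In 1338 genes (9.51%) the 8 values of one side did not overlap the 8 of the other. Counts within the gene lists below are to be read beside these shares of all genes. Several lists share members, so their counts are not separate results.

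Libraries held 13230854 to 24497738 counts, and libraries of the same group differed from each other by more than counting noise. The first principal component carried 61.2% of the variance of the 500 most variable genes and placed all 8 Cpt2-deficient livers on one side (13.8 to 28.9) and all 8 Cpt2-intact livers on the other (-28.5 to -14.7). The second component (10.3%) placed all ff;ff and DKO livers (-15.9 to -3.28) apart from all Rab30L-/- and Cpt2L-/- livers (3.65 to 14.2). Over all tested genes, 39% of the variance went with the Cpt2 state, 6.21% with the Rab30 state, 10.6% with their interaction and 44.2% lay within groups. TMM factors were lower on the intact side (0.856 to 0.987) than on the deficient side (0.999 to 1.15). With library totals alone, 6020 genes were called and the split was 4532 higher (75.3%) to 1488 lower in place of 48.9% higher, while the median change of all genes moved to 0.21. Changes are therefore stated relative to the bulk of genes, and a group whose direction turned with this scaling is named beside its values. Rab30L-/- replicate 2 stood apart in acute-phase and leukocyte genes, and 4544 genes were called without it. DKO replicate 3 stood apart in 6 single genes among those described, and 4581 genes were called without it.

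The targeted genes do not check the labels, because reads were counted over whole genes. For Rab30 the deletion takes 1 exon and leaves the rest of the transcript, while the deleted part of Cpt2 was not given in the sources used here. Cpt2 itself (chr4:107903981-107923610, GRCm38, minus strand) measured 130, 158 and 275 CPM on the intact side and 97.1, 113 and 166 on the deficient side. The sides overlapped, and the fold change was -0.57 ± 0.16 (adjusted p = 0.0090), a call that was lost with library totals. Its level was highest in the libraries labelled Rab30L-/- (172 to 275 CPM), above ff;ff (130 to 143), Cpt2L-/- (97.1 to 166) and DKO (97.5 to 120). Rab30 (chr7:92741603-92844535, plus strand) measured 10.5, 26.2 and 46.0 CPM on the intact side and 102, 141 and 235 on the deficient side. The sides were separate, with a fold change of 2.61 ± 0.28 (adjusted p = 2.0e-06). The higher level was present in both states, since DKO libraries measured 102 to 235 CPM against 10.5 to 26.3 in Rab30L-/-, in which the counted transcript lacks its targeted exon by design.

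Genes that Pparα is known to activate rose in most cases. Of 33 such genes tested, 26 rose and none fell, with a median change of 1.04 against -0.01 for all genes, and in 19 the sides did not overlap. Pdk4 (chr6:5483351-5496309), the kinase that shuts off pyruvate dehydrogenase, measured 5.34, 9.25 and 41.6 CPM in intact livers and 290, 464 and 849 CPM in deficient livers. Every deficient liver was far above every intact liver, and the fold change was 5.28 ± 0.59 (adjusted p = 8.8e-06). Ehhadh (chr16:21761287-21787807), the bifunctional enzyme of peroxisomal β-oxidation, went from 503, 990 and 1707 CPM to 5923, 10081 and 12101 CPM. This was a change of 3.26 ± 0.26 (adjusted p = 2.7e-08) with no overlap, and by FPKM, which divides by gene length, Ehhadh moved from place 146 to place 14 among protein-coding genes. Acaa1b, the peroxisomal thiolase, went from 605, 1104 and 1904 CPM to 4498, 5793 and 7041 CPM, a change of 2.30 ± 0.23 (adjusted p = 3.0e-07), and by FPKM it moved from place 94 to place 18.

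The acyl-CoA thioesterases and the ω-hydroxylases of the same program rose as well. Acot2, the mitochondrial thioesterase that frees fatty acids from CoA, measured 2.55, 9.68 and 21.2 CPM in intact livers and 140, 187 and 216 CPM in deficient livers. Its change of 4.14 ± 0.40 (adjusted p = 1.6e-06) came with no overlap. The cytosolic Acot1 rose by 3.03 ± 0.36, while reads of these near-identical neighbours may have been split between them by the counting. Cyp4a14, a fatty acid ω-hydroxylase, was already among the most abundant transcripts of intact livers (2735, 7052 and 9785 CPM) and reached 12747, 15633 and 19778 CPM. The sides did not overlap, the change was 1.35 ± 0.21 (adjusted p = 5.5e-05), and the same caution on near-identical copies applies to the Cyp4a cluster.

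Some well known Pparα targets of the fasted liver were not called. Cpt1a, which makes the acylcarnitines that Cpt2 uses, measured 764, 1016 and 1411 CPM in intact livers and 863, 1363 and 1743 in deficient livers. The sides overlapped, and it changed by 0.36 ± 0.15 (adjusted p = 0.072), a value that was past the threshold in 6 of 24 other settings. G0s2, Angptl4, Creb3l3, Fabp1 and Cyp4a32 were not called either, with changes between -0.35 (G0s2) and 0.62 (Cyp4a32). Ppara, the receptor gene itself, measured 82.2, 142 and 161 CPM against 112, 219 and 283, with overlap, and rose by 0.64 ± 0.20 (adjusted p = 0.018).

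**Figure D1:**
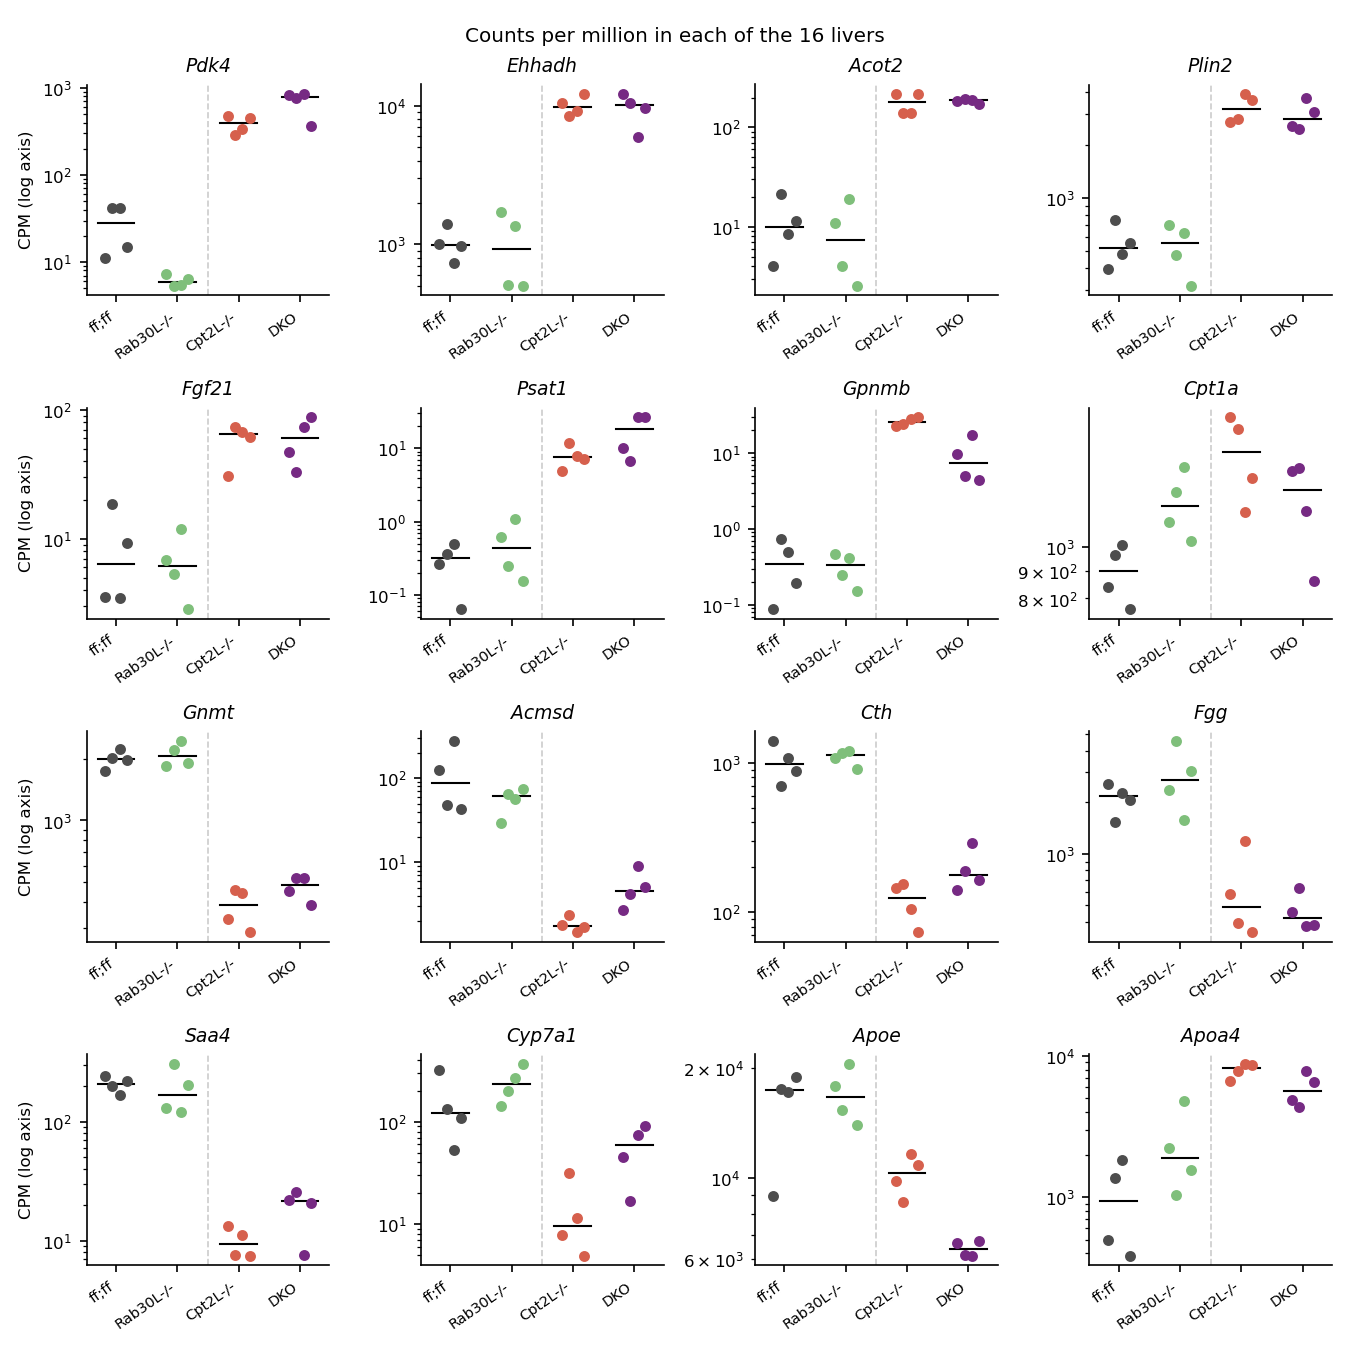
CPM (log axis) of 16 genes in each of the 16 livers, with 1 point a liver, a line at each group's median and a dashed line between the Cpt2-intact groups (ff;ff, Rab30L-/-) and the Cpt2-deficient groups (Cpt2L-/-, DKO). The points of Pdk4, Ehhadh, Acot2, Plin2, Fgf21, Psat1 and Gpnmb are higher and those of Gnmt, Acmsd, Cth, Fgg and Saa4 lower on the right of the dashed line with no overlap, while the points of Cpt1a overlap.

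Genes of mitochondrial fatty acid oxidation, from uptake and activation to β-oxidation, rose in part. Of 21 genes, 14 rose and 1 fell (median 0.64), and 12 of those that rose did not overlap between sides. Hadhb, a subunit of the trifunctional protein, measured 221, 291 and 366 CPM in intact and 471, 548 and 645 CPM in deficient livers. The change was 0.94 ± 0.12 (adjusted p = 7.3e-06), and its partner Hadha rose by 0.86 ± 0.13. Slc22a5, the carnitine importer of the plasma membrane, rose by 1.14 ± 0.12 (adjusted p = 9.1e-07) from a median of 87.9 to 202 CPM. Slc25a20, which carries acylcarnitine across the inner mitochondrial membrane, rose by 0.62 ± 0.11. Echs1, the short-chain enoyl-CoA hydratase, was the 1 gene that fell (-0.35 ± 0.09, adjusted p = 0.0041), from 226, 269 and 302 to 171, 214 and 228 CPM, and its call was lost with library totals.

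Peroxisomal oxidation and assembly genes, which handle very long-chain and ω-oxidized fatty acids, included 18 that rose and 1 that fell among 23 (median 0.50). Pex11a, which promotes peroxisome division, rose by 2.19 ± 0.22 from a median of 141 to 615 CPM. Pecr, the peroxisomal trans-2-enoyl-CoA reductase, went the other way, from 112, 137 and 158 CPM to 30.1, 39.1 and 58.2 CPM. Its change of -1.70 ± 0.12 (adjusted p = 5.1e-09) also came with separate sides. Catalase (Cat), the most familiar peroxisomal enzyme, changed by 0.10 ± 0.15 and was not called.

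Of 7 genes of ketone body synthesis and export, 4 rose and none fell (median 0.42), with overlap in each. Among them were Acat1 (0.42 ± 0.13) and the monocarboxylate carriers Slc16a1 (0.86 ± 0.19) and Slc16a6.

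Lipid droplet genes rose, with 13 of 18 tested called higher and none lower (median 0.94). Plin2 (chr4:86648386-86670060), the main coat protein of hepatocyte droplets, measured 315, 516 and 746 CPM in intact livers and 2467, 2946 and 3911 CPM in deficient livers. All deficient livers were above all intact ones, and the change was 2.53 ± 0.18 (adjusted p = 5.1e-09). Cidec, a droplet fusion protein otherwise typical of adipocytes, went from 16.9, 38.3 and 69.6 to 254, 401 and 519 CPM (3.24 ± 0.32, adjusted p = 1.3e-06), again without overlap. Plin4, another coat protein, rose by 3.09 ± 0.40 from a median of 15.4 to 238 CPM. The lipase gene Pnpla2 (adipose triglyceride lipase) rose by 0.85 ± 0.16, whereas its inhibitor G0s2 changed by -0.35 ± 0.48 and was not called.

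Fgf21, the fasting hormone of the liver, is a target of both Pparα and Atf4, the transcription factor of the integrated stress response. Fgf21 (chr7:45613886-45615490, minus strand) measured 2.85, 6.12 and 18.7 CPM in intact livers and 31.0, 64.5 and 87.5 CPM in deficient livers. The sides did not overlap, and the change was 2.93 ± 0.39 (adjusted p = 3.8e-05). The 250 bases before its start (chr7:45615491-45615740, GRCm38.p6 from RefSeq, minus strand) are shown because they hold 1 copy of the core of the Atf4 element, TGATGNAA, in capitals as read on the gene's strand.
Fgf21: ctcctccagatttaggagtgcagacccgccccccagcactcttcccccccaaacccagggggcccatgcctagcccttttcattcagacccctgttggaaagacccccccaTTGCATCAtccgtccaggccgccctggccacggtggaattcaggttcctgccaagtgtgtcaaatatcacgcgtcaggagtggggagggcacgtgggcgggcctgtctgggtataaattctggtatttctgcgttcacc

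Of 26 genes tested from a list of the Atf4 response, 15 rose and 2 fell (median 0.81), and 7 of those that rose did not overlap between sides. Promoter windows from 250 bases before to 50 after each start were found in RefSeq for 24 genes of the list. The 8 letters TGATGNAA, searched on both strands, were present in 9 of the 24 (37.5%), against 4.51% of 27025 genes with such a window. Only 1 of 25 Pparα targets held them, and that gene was Fgf21. The 9 genes were Fgf21, Atf3, Nupr1, Trib3, Vldlr, Pck2, Slc7a11, Asns and Chac1, of which the first 7 were called higher. Slc7a11, at no more than 2.06 CPM, lost that call in 11 of 23 other settings. Windows of 30 bases around the element, 5′ to 3′ on the gene's strand with the 8 letters in capitals, are shown for 3 genes that rose and for Asns and Chac1, which were not called.
Atf3: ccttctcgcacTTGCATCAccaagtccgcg
Nupr1: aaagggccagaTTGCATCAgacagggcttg
Trib3: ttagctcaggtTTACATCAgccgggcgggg
Asns: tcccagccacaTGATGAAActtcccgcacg
Chac1: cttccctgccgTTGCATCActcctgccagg

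In GRCm38.p6 these windows lie at chr1:191183425-191183454 (Atf3, minus strand), chr7:126625562-126625591 (Nupr1, minus strand), chr2:152344028-152344057 (Trib3, minus strand, from inside the transcript), chr6:7693214-7693243 (Asns, minus strand) and chr2:119351038-119351067 (Chac1, plus strand). A match of letters is a description of the window and not a measured binding site. A direct repeat of AGGNCA with 1 base between the copies, the form that Pparα binds, was found in 0.451% of the 27025 genes and in 1 of the 25 Pparα targets, Fabp1, which was not called. Among the 24 genes of the Atf4 list it was found in 1, Gdf15, which was called higher.

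Among the genes shown, Atf3, a stress-induced transcription factor, measured 0.177, 2.32 and 3.60 CPM in intact and 13.1, 19.5 and 57.3 CPM in deficient livers. It rose by 3.51 ± 0.48 (adjusted p = 4.5e-05) with separate sides. Nupr1, a small nuclear stress protein, went from 0.177, 0.440 and 3.11 to 11.3, 17.5 and 39.2 CPM, also without overlap. Trib3, a pseudokinase, rose by 1.29 ± 0.37 with overlap (4.24, 8.65 and 30.2 against 13.5, 28.2 and 47.0 CPM). Asns, asparagine synthetase, measured 2.48, 6.11 and 22.9 against 2.55, 6.19 and 16.1 CPM and changed by -0.33 ± 0.53 (adjusted p = 0.67). Chac1, which degrades glutathione, changed by 0.71 ± 0.40 (adjusted p = 0.18).

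The list also holds genes of serine and one-carbon synthesis. Psat1, a serine synthesis enzyme, went from 0.0644, 0.315 and 1.08 to 4.89, 8.99 and 26.5 CPM, with no overlap and a change of 4.82 ± 0.41 (adjusted p = 9.6e-08). Mthfd2, the mitochondrial folate enzyme, rose by 2.75 ± 0.35 from a median of 1.31 to 7.18 CPM. Gdf15, a secreted stress hormone, went from 0.707, 7.07 and 10.5 to 29.6, 49.7 and 73.3 CPM (2.92 ± 0.32, adjusted p = 3.7e-06). Atf4 mRNA itself rose by 0.44 ± 0.13, with overlap. Cebpb (-0.69 ± 0.22) and Cth, cystathionine γ-lyase of cysteine synthesis, were the 2 that fell, and the call of Cebpb was lost with library totals. Cth went from 700, 1078 and 1411 to 73.3, 150 and 291 CPM, with no overlap and a change of -2.78 ± 0.20 (adjusted p = 1.1e-08), and by FPKM its place among protein-coding genes moved from 128 to 696.

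Chaperones were read from further lists. Of 12 mitochondrial chaperones and proteases, 2 rose, a share near the 16.9% of all genes (5 rose with library totals), Hspd1 (0.41 ± 0.11) and Afg3l2 (0.26, a call lost in 13 of 24 other settings). Of 20 endoplasmic reticulum chaperones and unfolded protein response genes, 16 fell and none rose (median -0.63), which became 13 lower and 2 higher with library totals. Calr, a lectin chaperone, went from 448, 567 and 614 to 177, 261 and 387 CPM without overlap (-1.08 ± 0.16, adjusted p = 2.4e-05). Sdf2l1 fell by 2.25 on the log2 scale (SE 0.47) and Manf by 1.24 (SE 0.31). Hspa5 (BiP) measured 508, 598 and 1037 against 274, 418 and 678 CPM, and its change was -0.62 ± 0.20 (adjusted p = 0.025), a call that was lost in 6 of 24 other settings.

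Antioxidant genes of Nrf2 and the pentose phosphate path, which supplies NADPH, included 10 that rose and 2 that fell among 19 (median 0.70). Srxn1, sulfiredoxin, went from 46.5, 57.7 and 64.9 to 162, 366 and 416 CPM with no overlap (2.53 ± 0.16, adjusted p = 1.6e-09). Gclc, the catalytic subunit of glutathione synthesis, rose by 1.26 ± 0.17 from a median of 192 to 397 CPM, while the modifier Gclm changed by -0.17 ± 0.13 and was not called. Pgd (1.61 ± 0.16) and Tkt (1.01 ± 0.10) of the pentose phosphate path rose and G6pdx did not pass the test (0.22 ± 0.22). Gsta1, a glutathione transferase, was near 0 in intact livers (0, 0.0773 and 0.538 CPM) and measured 2.03, 4.24 and 8.66 CPM in deficient livers, while Gsta2 and Gsta4 fell.

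Nearly all genes of amino acid breakdown fell. Of 30 genes of the urea cycle and amino acid catabolism, 29 fell and none rose (median -1.09; 24 fell with library totals), and in 18 the sides did not overlap. Gnmt (chr17:46725664-46729168), which disposes of excess methyl groups, measured 1746, 1999 and 2455 CPM in intact and 284, 445 and 524 CPM in deficient livers. Its change of -2.28 ± 0.13 had one of the smallest adjusted p-values of all falls (3.6e-10). Ass1, the argininosuccinate synthase of the urea cycle, went from 3622, 4807 and 5689 to 1154, 1293 and 1948 CPM (-1.76 ± 0.14, adjusted p = 2.0e-08), also without overlap. Otc fell by 1.64 (SE 0.20) and Asl by 1.32 (SE 0.14) on the log2 scale. Cps1, the entry enzyme of the cycle, was the exception at -0.39 ± 0.19 (adjusted p = 0.11), with 7093, 9705 and 14522 against 4507, 7177 and 12727 CPM. Hal, Gls2 and Sds, which break down histidine, glutamine and serine, fell by 2.08, 2.06 and 2.65 on the log2 scale.

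The path from tryptophan to NAD fell at most of its steps, with 9 of 11 genes lower and none higher (median -1.40). Acmsd, the enzyme that diverts the path away from NAD, went from 29.2, 60.8 and 281 to 1.48, 2.54 and 8.99 CPM. The sides were separate and the change was -4.65 ± 0.60 (adjusted p = 3.6e-05). Haao, one step upstream, fell from a median of 243 to 57.0 CPM (-2.12 ± 0.14, adjusted p = 1.7e-09). Tdo2, the first enzyme, changed less (-0.53 ± 0.16).

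Gluconeogenesis showed 9 of 12 genes lower and none higher (median -1.04; 7 lower with library totals). Fbp1, fructose-1,6-bisphosphatase, went from 960, 1184 and 2118 to 311, 375 and 632 CPM without overlap (-1.67 ± 0.16, adjusted p = 1.3e-07). Slc37a4, the glucose-6-phosphate transporter, fell by 1.02 (SE 0.12). G6pc, the final enzyme, overlapped between sides (267, 554 and 1184 against 81.3, 177 and 444 CPM), with a change of -1.47 ± 0.44 (adjusted p = 0.018). Pck1, the rate-limiting enzyme of the path, measured 4591, 5502 and 7293 against 2953, 4083 and 5443 CPM. It fell by 0.51 (SE 0.14, adjusted p = 0.0073), a call that was lost with library totals. Pcx was not called (-0.04 ± 0.15).

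Of 15 lipogenesis genes 3 were higher and 5 lower, beside 16.9% and 17.7% of all genes (median -0.11, which turned to 0.11 with library totals). Srebf1, the master regulator, fell by 0.89 (SE 0.13), and Acly and Elovl6 fell by 0.90 and 1.21 on the log2 scale, all 3 without overlap. Me1, malic enzyme, rose by 1.61 ± 0.18 from 48.5, 83.3 and 136 to 202, 256 and 315 CPM. Fasn and Scd1, at -0.74 ± 0.28 and -0.81 ± 0.44, did not pass the test.

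**Figure D2:**
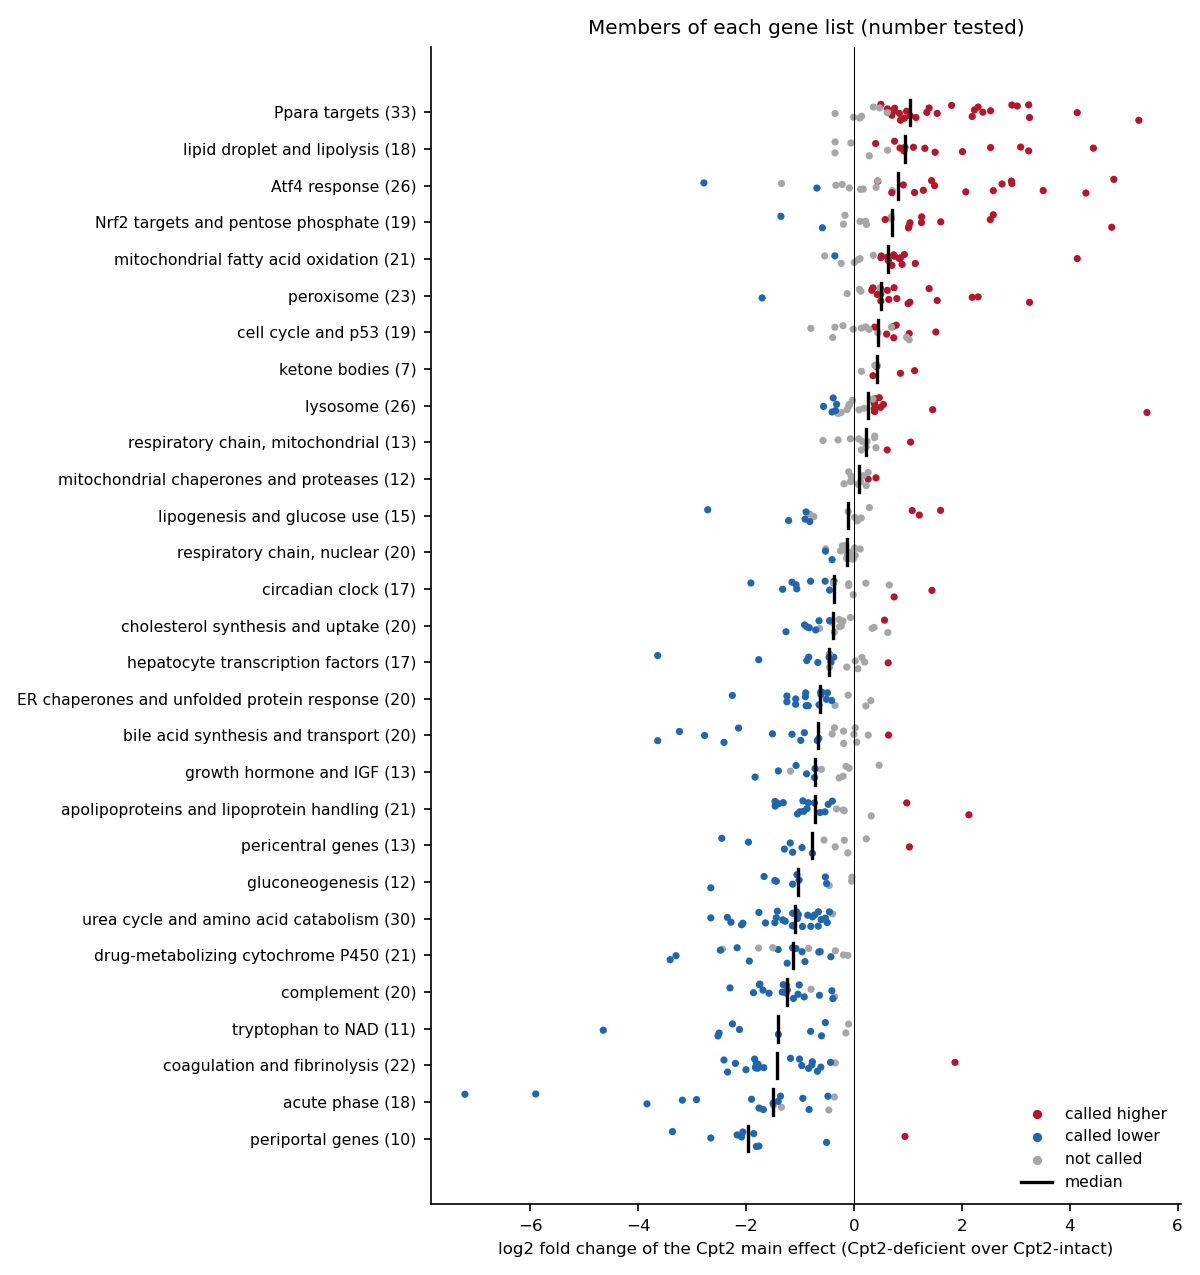
Log2 fold change of the Cpt2 main effect (Cpt2-deficient over Cpt2-intact) for the tested members of each gene list, with 1 point a gene (red called higher, blue called lower, grey not called), a bar at the list's median and the number of genes tested beside each name. The medians run from 1.04 for Pparα targets to -1.96 for periportal genes, and every point of the complement and of the urea cycle and amino acid lists lies below 0.

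Transcripts of secreted plasma proteins, a main product of the hepatocyte, fell as groups. Protein was not measured here. In the study's liver proteomics, complement and coagulation proteins were lower in Cpt2L-/- than in control livers but near control levels in DKO. Complement had 18 of 20 genes lower and none higher (median -1.24), coagulation and fibrinolysis 20 lower and 1 higher of 22 (median -1.42) and acute phase 14 lower and none higher of 18 (median -1.50). Proz, the vitamin K-dependent protein Z, measured 249, 324 and 464 CPM in intact and 54.7, 67.0 and 100 CPM in deficient livers. It fell by 2.34 (SE 0.13, adjusted p = 3.2e-10) with separate sides. Fgb, the β chain of fibrinogen, went from 2216, 3363 and 6070 to 639, 925 and 1552 CPM (-1.81 ± 0.20, adjusted p = 9.9e-07). Mbl2, a lectin that starts complement, fell from a median of 254 to 44.1 CPM (-2.30 ± 0.18), and C3, its central component, from 7890 to 4077 CPM (-1.04 ± 0.18).

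Among acute-phase genes Saa4, the constitutive serum amyloid A, went from 121, 201 and 305 to 7.54, 12.3 and 25.5 CPM with no overlap (-3.84 ± 0.30, adjusted p = 1.1e-07). Saa1, an inducible form, measured 13, 72.8 and 3165 CPM in intact and 1.17, 5.64 and 12.1 CPM in deficient livers. The highest intact value belonged to Rab30L-/- replicate 2, and the change of -5.90 ± 1.23 (adjusted p = 0.0021) became -4.87 without it, still past the threshold. Saa2 went from -7.21 to -5.72 without the same library and lost its call with limma-voom, and Saa1 and Saa2 are near-identical copies. That library also had the highest summed level of Kupffer cell markers (1075 CPM) and of neutrophil markers (18.2 CPM against 0.0642 to 5.55 elsewhere). The part of these cells in the acute-phase values was not tested, and without the library 15 of the acute-phase genes were called.

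Lipoprotein genes held 15 lower and 2 higher of 21 (median -0.73), and 11 lower and 2 higher with library totals, while 7 were called lower in both Rab30 states. As a share of counts they took 3.05 to 4.45% in ff;ff and 4.04 to 4.78% in Cpt2L-/-, but 4.12 to 5.38% in Rab30L-/- and 3.20 to 3.60% in DKO. Apoe, the remnant-binding apolipoprotein, measured 8922, 17321 and 20476 CPM in intact and 6146, 7659 and 11622 CPM in deficient livers. The overlap came from 1 low ff;ff library, and the change was -1.0 ± 0.17 (adjusted p = 0.00014). Apoa4, an apolipoprotein of triglyceride-rich particles, went the other way, from 386, 1465 and 4789 to 4351, 7197 and 8778 CPM (2.13 ± 0.43, adjusted p = 0.0011). The sides overlapped, and by FPKM Apoa4 moved from place 70 to place 10 among protein-coding genes. Mttp, which loads lipid onto apolipoprotein B, rose by 0.98 ± 0.11 without overlap (274, 331 and 431 against 542, 673 and 730 CPM), while Apob changed by -0.20 ± 0.15 and was not called.

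Read as shares of each library's counts, which need no scaling factor, these groups can be set side by side. The 82 genes for albumin, complement, coagulation, acute-phase proteins and apolipoproteins took 15.4, 16.1 and 19.0% of counts in intact livers and 9.61, 10.4 and 11.6% in deficient livers. Albumin (Alb) alone took 4.81, 6.64 and 8.16% against 3.16, 4.16 and 5.46%, and moved from the first to the second place by FPKM. The 33 Pparα targets took 1.78, 2.62 and 3.63% against 6.89, 7.51 and 8.53%. The shares of the plasma protein genes and of the Pparα targets did not overlap between sides, while those of apolipoprotein and lipoprotein genes (3.05, 4.33 and 5.38% against 3.20, 3.82 and 4.78%), of albumin and of the urea cycle and amino acid genes (5.28, 6.18 and 7.97% against 3.23, 3.44 and 5.49%) did.

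**Figure D3:**
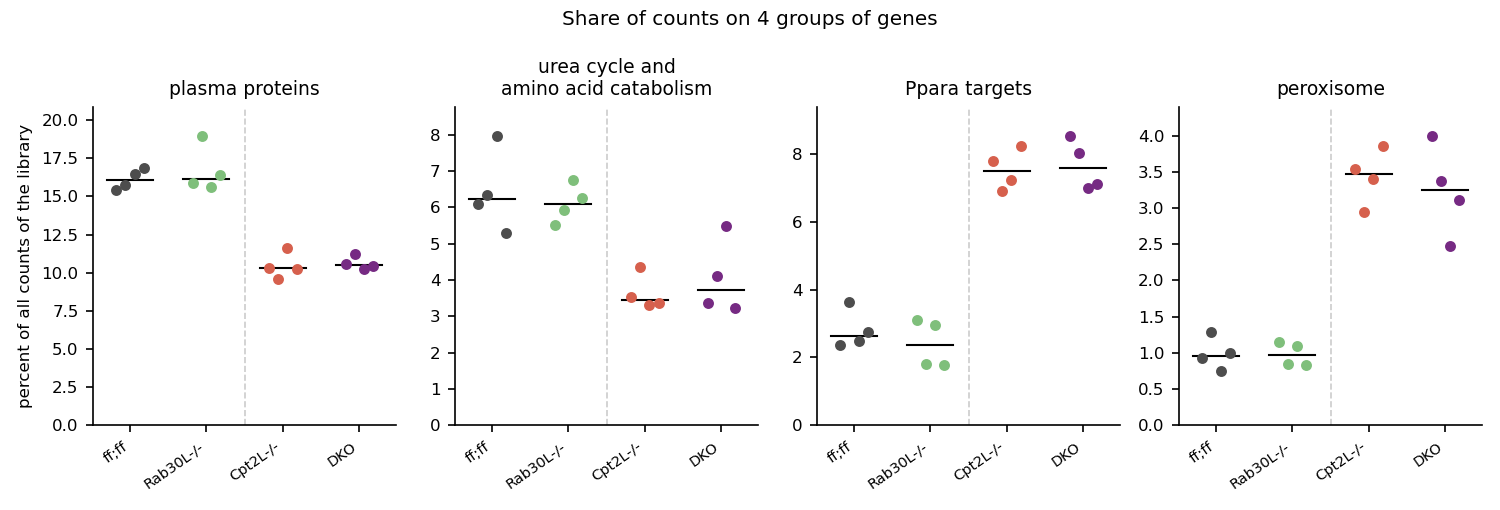
Percent of each library's counts (linear axis from 0) taken by 4 groups of genes in the 16 livers, with 1 point a liver, a line at the group median and a dashed line between Cpt2-intact and Cpt2-deficient groups. Pparα targets rise from 1.78 to 3.63% to 6.89 to 8.53%, and the plasma protein genes fall from 15.4 to 19.0% to 9.61 to 11.6%.

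Bile acid and drug metabolism fell in part. Of 20 bile acid genes 11 fell and 1 rose (median -0.67), and of 21 drug-metabolizing P450 genes 14 fell and none rose (median -1.14). Cyp7a1, the rate-limiting enzyme of bile acid synthesis, measured 52.4, 170 and 366 against 4.96, 24.0 and 90.5 CPM. It overlapped between sides and changed by -2.77 ± 0.53 (adjusted p = 0.00094). Nr0b2 (Shp), the repressor that bile acids induce through Fxr, fell too, from 8.93, 20.3 and 41.0 to 0, 1.62 and 4.65 CPM without overlap (-3.64 ± 0.51, adjusted p = 5.4e-05). The Fxr gene Nr1h4 changed by 0.02 ± 0.09. Abcb11, the bile salt export pump, fell from a median of 236 to 51.1 CPM (-2.14 ± 0.23). Cyp8b1 (0.00 ± 0.17) and Cyp2e1 (-0.11 ± 0.18) were not called.

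The genes that mark the periportal side of the lobule fell in 9 of 10 cases (median -1.96) with 8 not overlapping, and Hsd17b13 was the 1 that rose (0.95 ± 0.16). Most of those that fell (Hal, Sds, Gls2, Ass1, Pck1 and Cyp2f2) were already counted in the amino acid, gluconeogenesis or P450 lists. Pericentral genes fell in 7 of 13 and rose in 1 (median -0.77), among them Glul (-1.18 ± 0.19). Growth hormone and IGF genes fell in 6 of 13 with none higher, including Igf1 (467, 594 and 924 against 303, 366 and 599 CPM, -0.72 ± 0.15). Cholesterol synthesis and uptake had 7 lower and 1 higher of 20 (median -0.39; 4 and 2 with library totals). Of 17 hepatocyte transcription factors 9 fell and 1 rose (5 and 2 with library totals), with Cebpa at -0.87 ± 0.15 and Hnf4a at -0.43 ± 0.16. Nuclear-encoded respiratory chain subunits fell in 2 of 20 with none higher (median -0.13), a smaller share than the 17.7% of all genes. With library totals 1 fell and 1 rose, and the sign of the median turned.

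The largest rises among protein-coding genes called in the same direction in both Rab30 states, without overlap and at a mean of 5 CPM or more on the higher side, were largely in genes near 0 in intact livers. They were Rbm24, Fabp3, Elovl7, Tubb2b, Nrg1, Gpnmb, Ephb2, Pdk4, Sema3b, Psat1, Gsta1 and Ly6d, with fitted changes from 7.11 down to 4.65. Elovl7, a fatty acid elongase, measured 0, 0.228 and 0.531 CPM in intact and 6.29, 18.8 and 26.7 CPM in deficient livers (6.06 ± 0.31, adjusted p = 2.2e-10). Fabp3, the fatty acid binding protein of muscle and heart, measured 0, 0 and 0.305 against 1.19, 6.57 and 14.1 CPM. Rbm24, an RNA-binding protein of striated muscle, measured 0, 0 and 0.142 against 1.57, 4.33 and 16.1 CPM. These genes had only 29, 6 and 4 counts in all 8 intact libraries together, so the size of their fitted change depends on the small count added before taking the ratio. Gpnmb, a glycoprotein of lysosomes in macrophages and stressed cells, went from 0.0884, 0.332 and 0.731 to 4.36, 19.9 and 29.5 CPM (5.43 ± 0.38, adjusted p = 1.1e-08). Prune1 and Car2 (carbonic anhydrase 2) had, with Elovl7, the smallest p-values of all rises, at 1.92 ± 0.10 and 2.20 ± 0.12.

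The largest falls by the same rule were Saa1, Mmd2, Tff3, Acmsd, Slc3a1, Saa4, Enho, Nr0b2, Lrtm1, Aph1c, Cyp2c70 and Aldh1b1, from -5.90 to -3.36. Slc3a1, a subunit of the cystine and dibasic amino acid transporter, went from 21.6, 41.6 and 110 to 1.96, 2.68 and 6.80 CPM (-3.92 ± 0.32, adjusted p = 1.5e-07). Enho, which encodes the secreted peptide adropin, went from 17.2, 35.6 and 55.9 to 1.48, 2.12 and 4.36 CPM (-3.73 ± 0.26, adjusted p = 1.4e-08). Cyp2c70, which makes the muricholic acids of mouse bile, measured 14.4, 42.6 and 97.7 against 1.36, 2.97 and 13.8 CPM (-3.41 ± 0.58), and other Cyp2c copies may share its reads. The noncoding RNA B430119L08Rik was the third fall with the smallest p, beside Proz and Gnmt, at -4.35 ± 0.25.

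Markers of other liver cells were read in the same way, because whole liver was sequenced and fewer cells of a type cannot be told apart from less RNA per cell. Of 9 hepatocyte markers tested 7 fell and none rose (median -0.73), led by Fgb, and all were abundant on both sides. Of 15 Kupffer cell and macrophage markers 13 fell and 1 rose (9 and 1 with library totals), while 1 was called lower in both Rab30 states (medians -0.44 with Rab30 intact and -1.27 with Rab30 deficient). Their sum was 328, 439 and 1075 CPM in intact and 260, 309 and 387 CPM in deficient livers, which overlap, and the highest was Rab30L-/- replicate 2. Clec4f, which marks resident Kupffer cells, fell by 0.79 (SE 0.16, adjusted p = 0.00055), from 57.2, 88.6 and 156 to 44.6, 56.5 and 62.5 CPM. Cd68, a lysosomal protein of macrophages, was the 1 that rose, from 4.81, 6.42 and 10.5 to 23.7, 36.0 and 62.4 CPM with no overlap (2.52 ± 0.22, adjusted p = 1.0e-07).

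Stellate cell markers summed to 207, 412 and 470 against 390, 439 and 477 CPM, with 1 of 13 higher (Dcn). Endothelial markers summed to 343, 374 and 532 against 329, 381 and 472 CPM, with none of 12 called (3 rose with library totals). Erythroid genes fell in 4 of 5, with sums of 213, 338 and 639 against 88.6, 135 and 414 CPM, and the globin copies share reads. Of bile duct, lymphocyte, and adipocyte and pancreas markers 6, 3 and 1 were high enough to test, and Sox9 and Cd4 fell. None of the 8 neutrophil markers was high enough to test, and the pancreatic Prss2 and Pnlip were at 0 in all libraries. The part of these cells in the falls of complement and acute-phase genes was not tested.

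The change was then measured within each Rab30 state. With Rab30 intact, Cpt2L-/- against ff;ff called 3665 genes, 1816 higher (12.9%) and 1849 lower (13.1%). With Rab30 deficient, DKO against Rab30L-/- called 4213, 2064 higher (14.7%) and 2149 lower (15.3%). With library totals the splits were 4086 higher to 1061 lower and 3147 to 1551. The first of these contrasts cannot tell Cpt2 loss from the presence of Cre, whereas all 8 libraries of the second carried Cre. Each contrast also crosses the split of the second principal component, which set ff;ff and DKO apart from Rab30L-/- and Cpt2L-/-. The labels give no litters for Rab30L-/- and Cpt2L-/-, so within a state Cpt2 loss cannot be told apart from a difference of litters or lines. The contrasts share no library. They called 1912 genes in the same direction, 52.2% of the first set and 45.4% of the second, and 85 in opposite directions. Of the 1912, 962 were higher in both states (6.84% of genes tested) and 950 lower in both (6.76%). All 1912 and none of the 85 were called over both states together. Across the 14063 genes, which are not independent of each other, the fold changes of the 2 states had a Pearson correlation of 0.54.

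**Figure D4:**
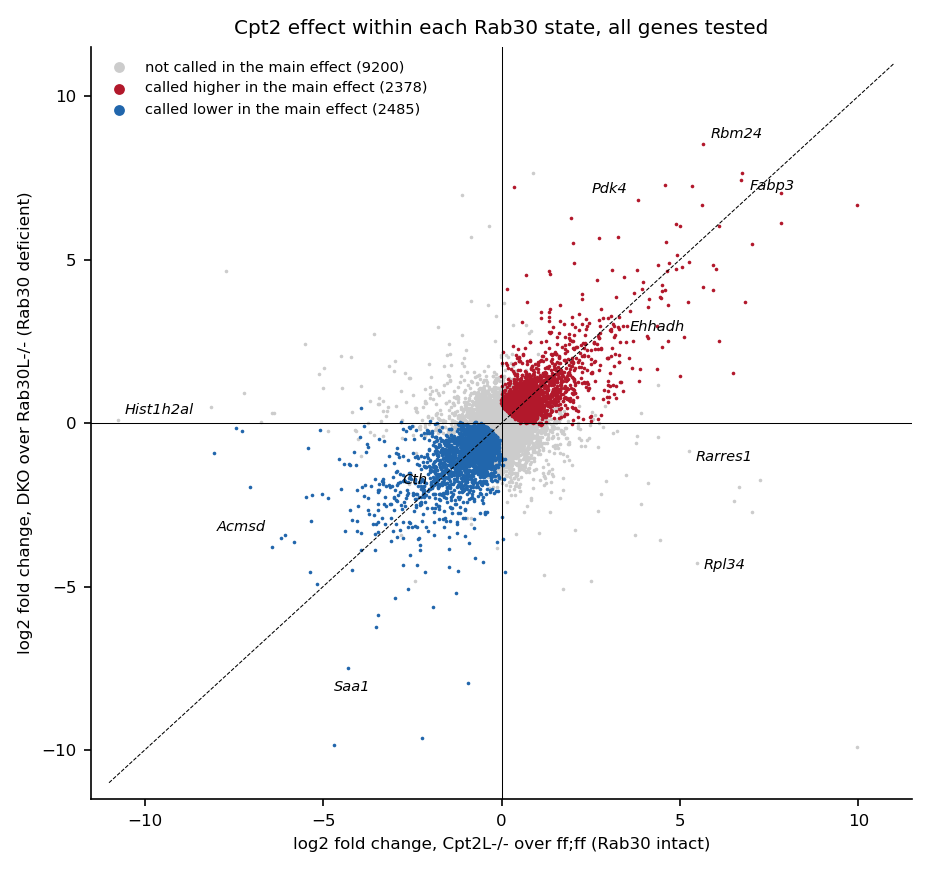
Log2 fold change of each of the 14063 tested genes in Cpt2L-/- over ff;ff (horizontal axis, Rab30 intact) against DKO over Rab30L-/- (vertical axis, Rab30 deficient), with red for the 2378 genes called higher and blue for the 2485 called lower over both states, grey for the 9200 others and a dashed line of equal change. Red points gather in the upper right and blue points in the lower left, while Rpl34, Rarres1 and Hist1h2al lie far from the line.

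Gene lists were read in both states. The median of the Pparα targets was 0.98 with Rab30 intact and 1.42 with Rab30 deficient, and 18 of the 33 were called higher in both. Of the 30 urea cycle and amino acid genes 21 were called lower in both (medians -1.14 and -1.06), as were 18 of the 22 coagulation genes (medians -1.19 and -1.45). Called in both were also 14 of 20 complement genes and 8 of 10 periportal genes lower, and 12 of 21 mitochondrial oxidation genes higher. Lower in both were 7 of 18 acute-phase genes (medians -1.06 and -2.14) and 5 of 12 gluconeogenesis genes (medians -1.07 and -0.46). Of 15 lipogenesis genes 5 were lower and 2 higher in both (medians -0.67 and -0.20), and of 7 ketone body genes 2 were higher. Of all genes tested 6.84% were called higher and 6.76% lower in both. The 1 of 20 cholesterol genes called lower in both was below that share. Ehhadh changed by 3.28 and 3.23, Plin2 by 2.59 and 2.48 and Gnmt by -2.40 and -2.16 in the 2 states.

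A test of the difference between the 2 changes called 571 genes (4.06%), 310 positive and 261 negative (191 and 373 with library totals, and 300 to 1268 genes in all over the other settings), of which 181 were also called over both states. This test sets DKO and ff;ff together against Rab30L-/- and Cpt2L-/-, the same split as on the second principal component. The labels name ff;ff as littermates of DKO and give no litters for Rab30L-/- and Cpt2L-/-. The difference therefore cannot be told apart from a split of litters. Each side of the Cpt2 comparison held 1 group from each side of that principal component, but the sides were not balanced for Cre. Pdk4 rose by 3.83 with Rab30 intact and by 6.83 with Rab30 deficient, a difference of 3.01, and its lowest levels were in Rab30L-/-. Alb changed by -1.41 and by -0.37, the latter not called, a difference of 1.04. G6pc (-2.76 and -0.17), Akr1d1 (-4.49 and -2.03), Nfil3 (-2.97 and -0.91) and Cry1 (-2.56 and -0.15) showed the same order. Apom, the apolipoprotein that carries sphingosine-1-phosphate, went the other way (-0.88 and -1.91), as did Cyp2c50, Cyp2c54 and Foxa2. Cpt2 counts themselves changed by -0.08, not called, with Rab30 intact and by -1.06 with Rab30 deficient.

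The 4 largest positive differences at a mean of 5 CPM or more were in Ren1, Hist1h2al, Gm13394 and Ctse, and the 4 largest negative in Rpl34, Rpl21, Rarres1 and Selenbp2. None of the 8 was called over both states. Rpl34 measured 1.5 to 3.9 CPM in ff;ff and 1.79 to 3.93 in DKO, but 51.9 to 66.1 in Rab30L-/- and 106 to 171 in Cpt2L-/-. Ren1, which encodes renin, was high in 3 ff;ff livers (79.1, 88.9 and 214 CPM) and in DKO replicate 3 (57.3 CPM) and at most 1.0 CPM in all others. Hist1h2al was at 0 in all 4 Cpt2L-/- livers and at 3.89 to 20.6 CPM in the others. Rpl34, Rpl21, Gm13394 and Hist1h2al belong to families with many near-identical copies or pseudogenes, so the counting may have moved their reads between copies.

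**Figure D5:**
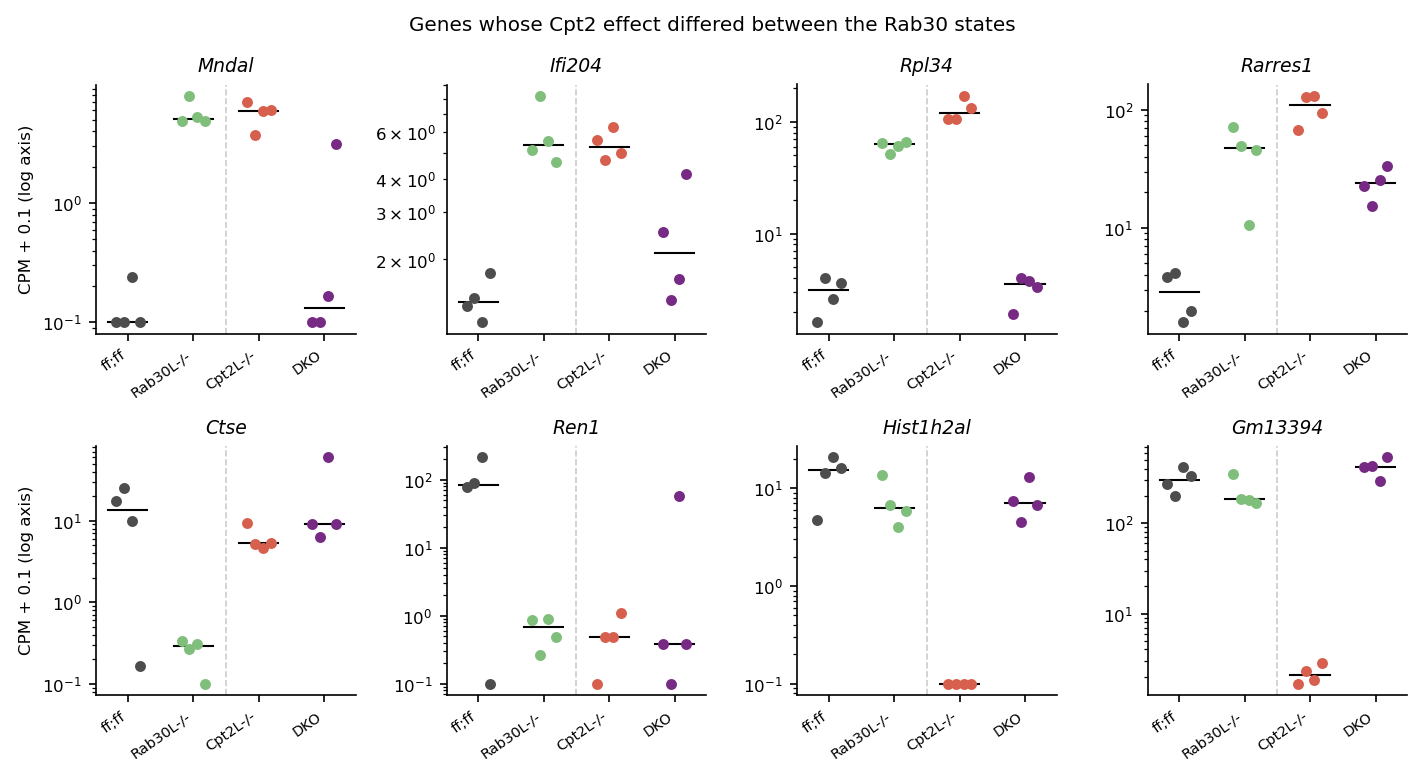
CPM plus 0.1 (log axis) in each of the 16 livers for 8 genes whose Cpt2 effect differed between Rab30 states, with 1 point a liver, a line at the group median and a dashed line between Cpt2-intact and Cpt2-deficient groups. Rpl34, Mndal and Ifi204 are low in ff;ff and DKO and high in Rab30L-/- and Cpt2L-/-, except that DKO replicate 4 lies close to the high groups for Mndal (3.0 CPM) and Ifi204 (4.08 CPM), and Ren1 is high in 3 ff;ff livers and 1 DKO liver.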

How the data were processed

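Total RNA of frozen liver was extracted with TRIzol and RNeasy columns and sequenced by Novogene. The submitters' processing notes name HISAT2, DESeq2 and the builds GRCm38 and mm10, without versions. The counter and its use of strand were not given in the sources used here. The authors deposited whole-number counts of reads per gene, without normalization, for 54532 genes. FPKM values deposited by the authors divide counts by gene length and a library size that followed DESeq2 size factors, and served only to rank genes within livers. The authors' normalized counts and tables of comparisons (log2 fold changes, p-values) were not used.

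Genes were kept by filterByExpr over the 4 groups and fitted with edgeR 4.0.16 in R 4.3.3 (TMM, quasi-likelihood with robust estimation), with an additive model of Cpt2 and Rab30 state. Contrasts within a Rab30 state and their difference came from a model of the 4 groups. P-values were adjusted by Benjamini-Hochberg over all genes tested. Calls needed an adjusted p under 0.05 and a 1.2-fold change; the difference needed the adjusted p alone. The fit was also run on simulated counts with few changed genes, as many up as down. That setting is unlike these data and cannot speak to the choice of scaling. Reads carry no molecular identifiers, so counting error alone does not cover all technical spread, and a count of 0 in a library allows up to 3 counts by counting error only.

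The gene lists and the choice of comparison were made with earlier results of these data known. Beyond lists, the genes named were the 12 largest rises and falls of protein-coding genes called in the same direction in both states without overlap and at a mean of 5 CPM or more, the 3 rises and 3 falls with the smallest p, up to 4 called members of each list and members whose role needed the value, the 4 largest positive and negative differences, and Fgf21, Apoa4, Pdk4, Apoe and Ppara. Some genes that this rule names are not reported here. Alternatives were DESeq2 1.42.0, limma 3.58.1 (voom), other scalings and filters, no covariate, and each library left out. Motifs were searched in RefSeq windows of GRCm38.p6.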

Additional observations from a re-analysis of the deposited data

Results flagged for a closer look

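In 21 of 298 sets of 8 livers examined, 1 liver lay far from the rest by Dixon's criterion, which chance alone meets in about 5% of sets. DKO replicate 3 accounted for 6 of them, with Nr0b2 at 0 CPM, Ctse at 59.7, Bhlhe41 at 1.52, Mcm3 at 5.36, Chac1 at 13.4 and Fabp3 at 1.19 CPM. In ff;ff replicate 1, Apoe (8920 CPM), Sdhb (312 CPM) and Gdf15 (0.707 CPM) stood apart, and in ff;ff replicate 3, G0s2 (11.1 CPM) and Ppargc1a (73.3 CPM). In Rab30L-/- livers the values were 75.9 CPM for Manf and 27.5 CPM for Sdf2l1 (replicate 1), 16.9 CPM for Ccnd1 (replicate 3) and 1.16 CPM for Slc7a11 (replicate 4). In Cpt2L-/- replicate 1, Saa1 measured 1.17 CPM and Tff3 was at 0. In DKO replicate 2, Pck2 measured 2.75 CPM and Mmd2 was at 0, and in DKO replicate 4, Afg3l2 measured 123 and Plin4 111 CPM.

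Of the 571 genes whose Cpt2 effect differed between Rab30 states by edgeR's test of the difference, 21 were among the 149 named. The log2 difference (Rab30 deficient less Rab30 intact) was positive for Alb (1.04), G6pc (2.58), Slc1a2 (2.43), Akr1d1 (2.46), Pdk4 (3.01), Nfil3 (2.05), Cry1 (2.41), Gm13394 (8.14), Ctse (8.08), Hist1h2al (10.83) and Ren1 (12.36). It was negative for Cpt2 (-0.99), Apom (-1.03), Foxa2 (-1.10), Cyp2c54 (-1.47), Cyp2c50 (-2.02), Bhlhe41 (-2.54), Selenbp2 (-3.70), Rpl21 (-5.95), Rarres1 (-6.11) and Rpl34 (-9.74). The values of Hist1h2al and Ren1 rest on groups at or near 0 and depend on the small count added in the fit.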

How the results depend on the processing

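Over both states, 4248 genes (at least 10 counts in every library) to 6020 (library totals) were called in place of 4863, and 4530 to 5185 with 1 library left out. Within states the counts were 2863 to 3754 (Rab30 intact) and 3485 to 4636 (Rab30 deficient) with 1 library left out. The difference between states called 571 genes, but 1080 with DESeq2's Wald test and 1268 with limma-voom, and 300 to 679 with 1 library left out. Its count fell by over 1.5 times without Cpt2L-/- replicate 4 (300), 3 (339) or 2 (365), DKO replicate 2 (328), or Rab30L-/- replicate 2 (349) or 4 (362); the cause was not tested. Of 149 named genes, 128 kept their direction and call in every setting, 11 lost a call in at least 1 and 10 gained one. With 1 library left out, the uncalled changes of Rpl34 (-1.18 to 2.34, below 0 without any 1 ff;ff library) and Ren1 (-6.95 to 0.372, above 0 without any 1 Cpt2L-/- library) turned in sign. Slc7a11, at up to 2.06 CPM, changed by 2.58 and by 6.56 without Rab30L-/- replicate 4. Library totals were added as a setting after the data were seen. No paired analysis was possible because the labels number no replicates, and the numbers given here only name libraries and tie no mice or litters of different groups.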

Other observations

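Genes of the cell cycle and of lysosomes rose in part. Of 19 cell cycle and p53 genes tested, 7 rose and none fell (median 0.44), among them Mcm2, Mcm3, Mcm4 and Mcm6 of the replicative helicase (Mcm5 and the replication genes Pcna, Cdk1 and Ccne2 were not called), Mdm2 (0.39 ± 0.12) and Ccnd1 (0.78 ± 0.27, a call lost in 8 of 24 other settings). The proliferation marker Mki67 stayed under 1.33 CPM on both sides and was not called (-0.39 ± 0.29). Of 26 lysosomal genes 12 rose and 5 fell (median 0.27), beside 16.9% and 17.7% of all genes, so the share that fell was near that of all genes. With library totals 15 rose and none fell. Ctsd, the aspartic protease of lysosomes, went from 199, 235 and 258 to 277, 298 and 361 CPM without overlap (0.38 ± 0.09, adjusted p = 0.0025). Of 17 circadian clock genes 9 fell and 2 rose (Bhlhe40 and Bhlhe41), against 5 and 3 with library totals, with Nfil3 at -1.91 ± 0.38 and Cry1 at -1.32 ± 0.40, and 5 differed between Rab30 states.

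Genes whose Cpt2 effect differed between states were unevenly placed, a pattern seen only after the values were. Of 225 windows of 10 Mb with at least 20 tested genes, the one at 170 to 180 Mb of chromosome 1 held the highest share, 22 of 87 genes (25.3% against 4.06% overall), 17 of them negative. Mndal measured 0 to 0.142 CPM in ff;ff and 0 to 3.0 in DKO (0 to 0.0661 without replicate 4), but 4.78 to 7.84 in Rab30L-/- and 3.66 to 6.98 in Cpt2L-/-. Ifi204, Ifi203, Ifi213, Fcgr3 and Fcer1g also had higher medians in Rab30L-/- and Cpt2L-/- than in ff;ff and DKO, and Ifi202b, at 0 in all 4 Cpt2L-/- livers, the opposite sign. Nr1i3, the nuclear receptor Car, lies there as well, with medians of 26.4 CPM in ff;ff, 56.6 in Rab30L-/-, 59.6 in Cpt2L-/- and 37.3 in DKO. Called genes of the Cpt2 comparison made up 40.3% of the 129 tested within 10 Mb of Cpt2 and 37.2% of the 879 tested on chromosome 4, against 34.6% of all.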
